A study of Mus musculus with 21 samples.

Results

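The comparison described here sets 2 RNA-seq libraries of the 21 samples of the series against each other, notochord progenitors (NotoP) and paraxial mesoderm progenitors (MP) of mouse embryos at E9.5. Genes with at least 5 FPKM, a level scaled to transcript length and library size, in either library were taken, which left 8663 of 23983 genes, and each was given as log2 of NotoP over MP after 1 was added to both FPKM values. Genes at least 3-fold apart on that scale were described, namely 164 genes higher in MP (1.89% of the genes tested) and 447 higher in NotoP (5.16%). Special weight was given to the first set and to the genes that the same pair of cell types at E8.5 did not show.

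Both cell types came from the caudal ends of Theiler stage 16 embryos. The embryos were made from 1 F1G4 mES cell line (C57BL/6N x SV129) that carried 3 BAC reporters, T::H2B-Venus, Noto::H2B-mCherry and Foxa2::H2B-mTurquoise. The labels give tetraploid complementation as the way the embryos were made, where the text of the study describes diploid aggregation. NotoP cells were sorted as Noto+/T+/Foxa2+ and MP cells as T+/Noto-/Foxa2-, so the controls carried the same transgenes, and the Noto and Foxa2 levels follow from the gate. Both gates required T, and the study names high T reporter signal for the MP gate. The E8.5 pair was sorted for the same reporters from Theiler stage 12 embryos of the same line, but the study names high Foxa2 reporter signal for the NotoP gate at E9.5 and not at E8.5, so stage and gate cannot be told apart. NotoPdiff and MPdiff cells, used below as a second pair, were differentiated from an mES line with TRE::Foxa2-IRES-EGFP at Rosa26, T::H2B-mCherry-T2A-irTA and Noto::H2B-mTurquoise, and sorted as Noto+/T+ and T+/Noto-. Both were made with the Wnt agonist CHIR, and NotoPdiff cells also with doxycycline, which induces the Foxa2 transgene, so this pair differs by treatment as well as by sort. Embryos were pooled, and every group had 1 library, so no difference below has a replicate check. Fewer cells of a type and less RNA per cell cannot be told apart in such bulk libraries.

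Axial mesoderm forms the notochord, whose cells keep an epithelial, keratin-rich character and are a source of Sonic hedgehog and Bmp antagonists. Paraxial mesoderm is laid down by the same tail bud, but its cells go through an epithelial-to-mesenchymal transition, move through the presomitic mesoderm under Wnt, Fgf and Notch signalling, and are then cut into somites. Hox genes of successive paralog groups switch on in the tail bud as the axis extends.

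The E9.5 libraries kept to their gates. Noto, the homeobox gene of the node and notochord, was at 164 FPKM in NotoP and listed at 0 in MP. Foxa2, the forkhead factor of the axial midline, was at 45.6 FPKM in NotoP and 0.860 FPKM in MP. T (brachyury), which both gates required, was at 744 FPKM in NotoP and 160 FPKM in MP, so its transcript was lower in the cells sorted for high T reporter. All 17 genes of the notochord list were higher in NotoP, with a median log2 ratio of 4.45, while the median of all genes tested was 0.02. The list holds T, Noto and Foxa2 and was chosen with earlier results of these data known. Its count is therefore no independent check of the gates. Among the 17 genes were Shh (178 and 0.343 FPKM in NotoP and MP), the guidance ligand Slit2 (141 and 8.45 FPKM) and the Bmp antagonists Nog (37.2 and 1.67 FPKM) and Chrd (10.6 and 0.279 FPKM). The paraxial genes Tbx6 (27.8 FPKM in NotoP and 67.2 FPKM in MP) and Msgn1 (46.6 and 123 FPKM), transcription factors that define presomitic mesoderm, were more abundant in MP but below 3-fold, so they were not among the members.

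The 2 libraries differed little over most genes. Of the genes tested, 65.5% were less than 1.5-fold apart, and the quartiles of the log2 ratio were -0.36 and 0.45. The genes higher in MP had a median of 11.1 FPKM in MP, where 74 of 164 were under 10 FPKM and 17 at 100 FPKM or more, 18 were listed at 0 in NotoP, and 83 were 4-fold or more apart. The genes higher in NotoP had a median of 13.9 FPKM in NotoP, where 164 of 447 were under 10 FPKM and 17 at 100 FPKM or more, 57 were listed at 0 in MP, and 264 were 4-fold or more apart. At the edge of the rule, Vegfc (2.40 FPKM in NotoP and 9.24 FPKM in MP) and Rpia (1.82 and 7.48 FPKM) were just inside, and Thoc3 (7.20 and 23.6 FPKM) and Rnf141 (2.71 and 10.1 FPKM) just outside. On the other side, Ccpg1 (9.43 and 2.47 FPKM) and Rora (8.65 and 2.21 FPKM) were just inside, and Furin (16.1 and 4.69 FPKM) and Tbck (16.1 and 4.71 FPKM) just outside.

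**Figure D1:**
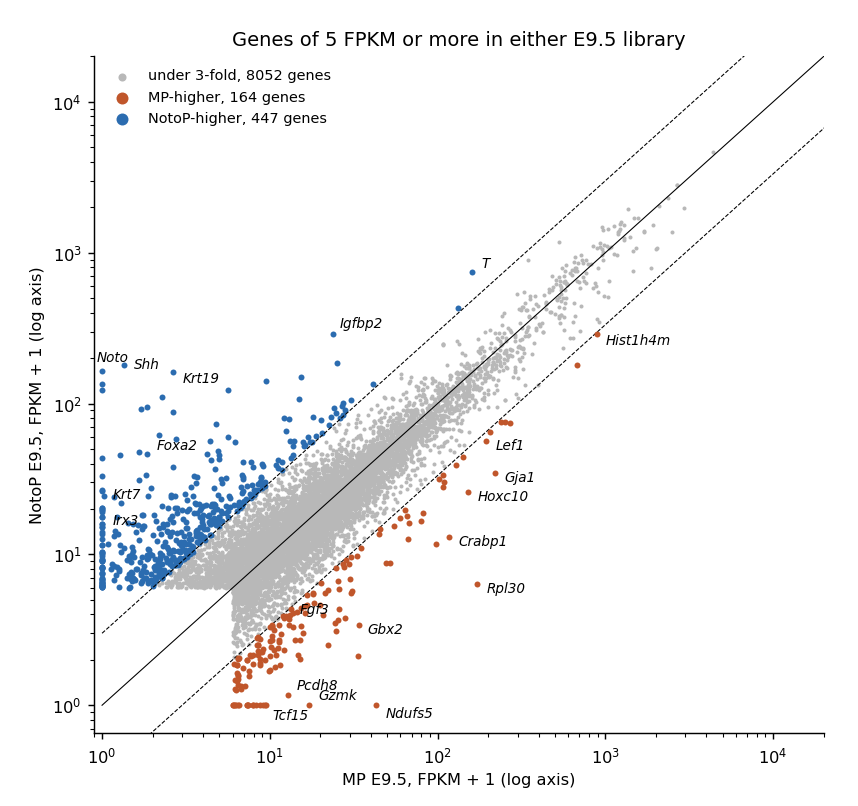
Each point is 1 of 8663 genes, with FPKM + 1 in MP at E9.5 on the x axis and in NotoP at E9.5 on the y axis, both on log axes. The solid line marks equal values and the dashed lines 3-fold, and the 164 genes below the lower dashed line and the 447 above the upper one are those described.

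The promoters of epithelial genes carried a shared short sequence, and they are shown first because 8 of the 9 epithelial genes tested were among the genes higher in NotoP. In all, 17 motifs were searched on both strands, in windows from 250 bases before to 50 bases after each RefSeq start. In percentage points, the share among NotoP-higher genes differed most from that of all tested genes for the E box CACCTG (reverse complement CAGGTG). As a ratio, the share of the T half-site TCACACCT, given below, differed more. The E box is the core bound by the Snail and Zeb repressors of epithelial genes. It was present at 104 of 302 genes higher in NotoP that have a promoter in the table (34.4%, 95% Wilson interval 29.3 to 40), at 21 of 107 higher in MP (19.6%, 13.2 to 28.1), at 18.3% of all tested genes and at 22.6% of all genes of the table. The motif was singled out after the shares were seen. Genes with 1 promoter only gave 29.4%, 12.6% and 14.8% for the NotoP-higher, MP-higher and all tested genes. Of the 7 epithelial genes higher in NotoP with a promoter in the table, 6 held it, but so did 13 of the 14 genes of the whole epithelial list with a promoter there, 6 of them under 5 FPKM in both libraries. A match describes letters in these windows and not a bound site. The sequences below are the 250 bases before a RefSeq start of those 6 genes, of Samd3, the gene with the second largest ratio, and of Snai1, a gene higher in MP. They come from RefSeq (GRCm38.p6), read 5′ to 3′ on the strand of the gene, with E boxes in capitals, and for Samd3 the T half-site TCACACCT (reverse complement AGGTGTGA). For Cldn6, Spint2 and Samd3 the start used lies inside the outermost bounds of the gene, so the printed stretch overlaps the gene.
Krt8, chr15:102004343-102004592, minus strand: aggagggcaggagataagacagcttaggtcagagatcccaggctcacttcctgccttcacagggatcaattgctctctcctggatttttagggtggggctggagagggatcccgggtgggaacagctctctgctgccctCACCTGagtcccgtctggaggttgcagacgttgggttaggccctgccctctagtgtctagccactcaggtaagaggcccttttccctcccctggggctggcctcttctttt
Krt18, chr15:102027966-102028215, plus strand: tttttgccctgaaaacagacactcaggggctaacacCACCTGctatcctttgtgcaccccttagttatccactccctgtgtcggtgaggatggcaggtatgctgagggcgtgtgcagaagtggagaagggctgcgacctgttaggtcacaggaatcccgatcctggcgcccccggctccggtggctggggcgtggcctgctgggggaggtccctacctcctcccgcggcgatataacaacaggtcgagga
Krt7, chr15:101412153-101412402, plus strand: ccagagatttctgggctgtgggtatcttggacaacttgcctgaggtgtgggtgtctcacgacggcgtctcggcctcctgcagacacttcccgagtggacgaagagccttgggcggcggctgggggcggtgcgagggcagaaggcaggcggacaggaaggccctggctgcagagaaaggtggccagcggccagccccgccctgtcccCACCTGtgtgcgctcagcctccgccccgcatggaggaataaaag
Epcam, chr17:87635729-87635978, plus strand: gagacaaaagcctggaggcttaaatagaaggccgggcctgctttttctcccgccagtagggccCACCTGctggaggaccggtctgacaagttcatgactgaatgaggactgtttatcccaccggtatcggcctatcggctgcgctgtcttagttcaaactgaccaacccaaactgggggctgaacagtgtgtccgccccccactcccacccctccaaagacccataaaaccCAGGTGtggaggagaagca
Cldn6, chr17:23679115-23679364, plus strand: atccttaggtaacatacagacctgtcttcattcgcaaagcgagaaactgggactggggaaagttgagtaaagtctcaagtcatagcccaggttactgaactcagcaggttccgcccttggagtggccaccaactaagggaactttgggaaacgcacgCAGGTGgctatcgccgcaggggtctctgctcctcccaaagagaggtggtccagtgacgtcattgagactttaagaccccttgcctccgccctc
Spint2, chr7:29281978-29282227, minus strand: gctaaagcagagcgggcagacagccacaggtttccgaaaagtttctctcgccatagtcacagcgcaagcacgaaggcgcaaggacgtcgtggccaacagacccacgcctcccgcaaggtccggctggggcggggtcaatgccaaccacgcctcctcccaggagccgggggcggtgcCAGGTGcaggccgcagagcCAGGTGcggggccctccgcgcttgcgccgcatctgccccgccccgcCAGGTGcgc
Samd3, chr10:26229457-26229706, plus strand: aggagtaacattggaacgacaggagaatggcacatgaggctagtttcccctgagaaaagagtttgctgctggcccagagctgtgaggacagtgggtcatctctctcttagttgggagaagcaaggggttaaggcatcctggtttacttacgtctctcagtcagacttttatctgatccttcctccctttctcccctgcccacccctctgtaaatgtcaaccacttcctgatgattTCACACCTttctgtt
Snai1, chr2:167537945-167538194, plus strand: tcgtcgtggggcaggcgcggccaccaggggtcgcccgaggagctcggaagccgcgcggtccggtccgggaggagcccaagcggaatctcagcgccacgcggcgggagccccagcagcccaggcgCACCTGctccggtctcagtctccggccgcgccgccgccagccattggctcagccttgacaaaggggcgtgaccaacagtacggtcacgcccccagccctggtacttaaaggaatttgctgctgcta
The E box of Krt8 began 111 bases before the start and that of Krt18 214 bases before it. These keratin genes lie side by side (chr15:101996711-102032026) and both were high in NotoP. Spint2 held 3 copies within its last 74 bases, Epcam held 2, and a second copy of Cldn6 lay 40 bases after the start, outside the printed stretch. Snai1 itself, the Snail gene, held 1 copy. As given below, Snai1 was not higher in MP at E8.5, and its part in the levels of the epithelial genes was not tested. The T half-site began 15 bases before the start of Samd3. The nearest T peak mapped by ChIP-seq in the cultures (chr10:26228095-26228632) lay outside the printed stretch, with its summit 1365 bp upstream of a start. The half-site TCACACCT was present at 2.32% of the NotoP-higher genes (7 genes, 1.13 to 4.71) and 1.87% of the MP-higher genes. Of all tested genes 0.776% held it (0.591 to 1.02), so the interval of the NotoP-higher genes lay above that of all tested genes. The same NotoP-higher interval included the 1.48% found for all genes of the table. Genes with 1 promoter only gave 1.26% (3 genes) for the NotoP-higher and 0.591% for all tested genes. The shorter T half-site TCACACC (reverse complement GGTGTGA) was present at 5.63% of the NotoP-higher, 7.48% of the MP-higher and 3.7% of all tested genes. For the forkhead site TGTTTAC (reverse complement GTAAACA) the shares were 4.64%, 1.87% and 3.03%. For its variant TGTTTGC (reverse complement GCAAACA) they were 7.28% (4.86 to 10.8), 5.61% (2.60 to 11.7) and 4.32% (3.86 to 4.84), so the interval of the NotoP-higher genes lay just above that of all tested genes. It included the 5.76% found for all genes of the table. For TTTATNG (reverse complement CNATAAA), a site of the caudal factors, they were 10.3%, 9.35% and 7.76%. The intervals for TGTTTAC and TTTATNG overlapped those of all tested genes.

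Several genes of the presomitic mesoderm and somite were on the MP side. Of the 17 presomitic genes tested, 5 were higher in MP and 0 in NotoP, and 14 of 17 had a negative log2 ratio, with a median of -1.24 beside 0.02 for all genes tested. Pcdh8, the protocadherin of the forming somite border, was at 0.162 FPKM in NotoP and 11.8 FPKM in MP at E9.5 and at 1.27 and 20.3 FPKM at E8.5, a log2 ratio of -3.46 at E9.5 and -3.23 at E8.5. Ripply2, a repressor that ends Tbx6 activity at that border, was listed at 0 in NotoP and at 6.38 FPKM in MP at E9.5. The Notch ligand Dll1 was at 30.4 and 101 FPKM, the protocadherin Pcdh19 at 7.80 and 48.4 FPKM, and Snai1, the repressor that drives the epithelial-to-mesenchymal transition, at 15.0 and 66.6 FPKM. Hey1, a Notch target, was the clearest exception at 64.5 FPKM in NotoP and 23.8 FPKM in MP.

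Of the 10 somite genes tested, 5 were higher in MP and 2 in NotoP, with a median of -1.33. Tcf15 (paraxis), which keeps somites epithelial, was listed at 0 in NotoP and at 8.35 FPKM in MP. The forkhead genes Foxc2 (2.13 and 23.7 FPKM) and Foxc1 (14.4 and 54.0 FPKM), needed for segmentation, Pax3 (0.572 and 6.55 FPKM), a gene of somites and dorsal neural tube, and Meis1 (2.89 and 11.0 FPKM), a Hox cofactor, made up the rest. The pair on the other side was Aldh1a2, which makes retinoic acid (31.3 FPKM in NotoP and 7.88 FPKM in MP), and the ephrin Efnb2 (15.5 and 3.49 FPKM). Meox1, an early somite gene, was nearly equal at 16.0 and 14.3 FPKM.

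Tail bud signalling split between the libraries gene by gene. Among 18 caudal progenitor genes tested, 4 were higher in MP and 1 in NotoP, and the median was 0.27. Gbx2, a homeobox gene of the caudal epiblast, was at 2.42 FPKM in NotoP and 32.9 FPKM in MP, and Cdx4, a caudal homeobox gene, at 32.7 and 107 FPKM. Wnt5a, a ligand of the non-canonical Wnt pathway, was at 29.1 and 108 FPKM, and Nkx1-2, a marker of neuromesodermal progenitors, at 0.338 and 5.77 FPKM. Mixl1, a mesendoderm homeobox gene, went the other way at 44.7 and 4.00 FPKM. Of these, Gbx2, Cdx4 and Wnt5a were also 3-fold higher in MP at E8.5, and Mixl1 3-fold higher in NotoP.

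Of 14 Wnt targets and modulators tested, 3 were higher in MP and 1 in NotoP, with a median of -0.11. The MP-higher genes were Nkd2, an inhibitor of the pathway (7.80 and 51.1 FPKM in NotoP and MP), Lef1, its nuclear effector (55.6 and 194 FPKM), and Sfrp1, a secreted antagonist (1.77 and 7.74 FPKM), and Dkk1, another secreted antagonist, was higher in NotoP (40.0 and 10.8 FPKM). Of 14 Fgf pathway genes tested, 2 were higher in MP and 0 in NotoP, with a median of -0.46 and 11 of the 14 below 0. The MP-higher genes were the ligands Fgf3 (2.70 and 24.5 FPKM) and Fgf15 (7.13 and 23.8 FPKM), at chr7:144838612-144843348 and chr7:144896532-144900953 (mm10). Fgf8, a ligand of the tail bud that is not among those 14 genes, was at 54.4 FPKM in NotoP and 20.5 FPKM in MP, below 3-fold.

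Crabp1 (12.0 FPKM in NotoP and 116 FPKM in MP) and Crabp2 (10.7 and 97.0 FPKM), the cellular retinoic acid binding proteins, were higher in MP. Gja1, the gap junction protein connexin 43, was at 33.4 and 219 FPKM. Pdgfra, a receptor of mesenchymal cells, was at 11.6 and 65.9 FPKM, and Gas1, a co-receptor for Shh, at 1.03 and 14.2 FPKM. Hedgehog genes gave 1 of 9 tested higher in MP, Gas1, and 3 higher in NotoP: the ligand Shh, the target Gli1 (16.9 and 1.62 FPKM) and the receptor and target Ptch1 (86.0 and 23.7 FPKM). The transducer Smo was nearly equal at 39.5 and 42.2 FPKM.

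**Figure D2:**
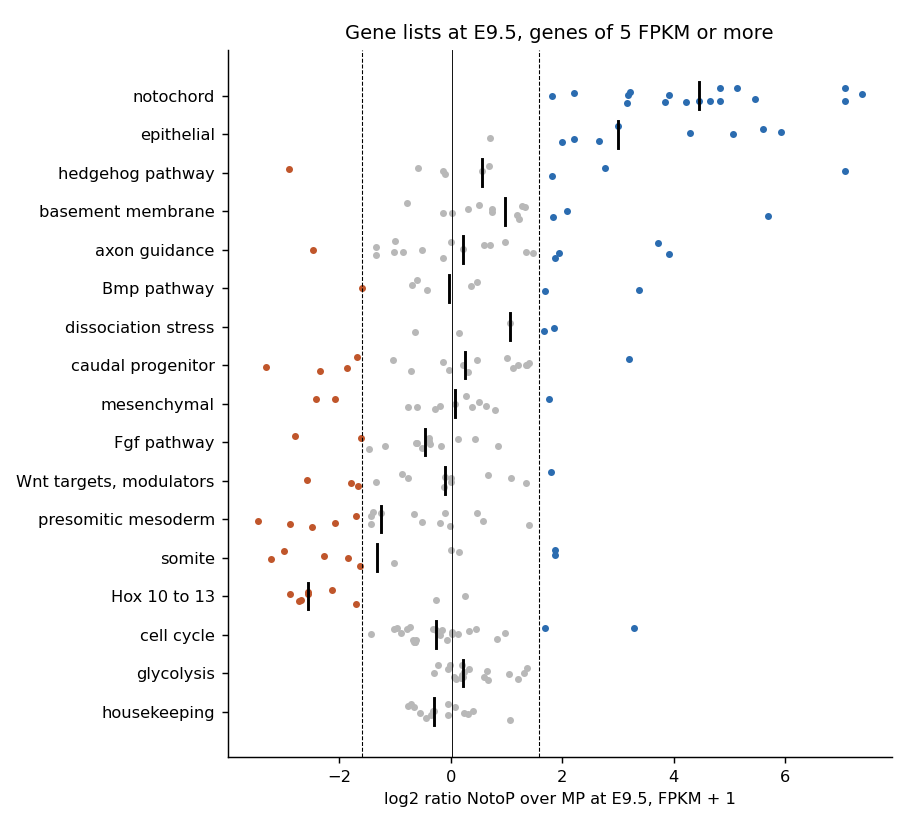
Each point is 1 gene of a list with at least 5 FPKM in either E9.5 library, placed by its log2 ratio of NotoP over MP, with thick bars at the median of each list and dashed lines at 3-fold. The notochord and epithelial lists lie to the right, the presomitic, somite and Hox 10 to 13 lists have medians of -1.24, -1.33 and -2.55, and glycolysis and housekeeping genes stay inside the dashed lines.

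Most of the posterior Hox genes tested were on the MP side. Of 12 genes of paralog groups 10 to 13, 9 were tested, 7 were higher in MP and 0 in NotoP, and their median log2 ratio was -2.55. Groups 5 to 9 gave 1 of 15 higher in MP, with a median of -0.27. Hoxc10 was at 24.9 FPKM in NotoP and 151 FPKM in MP, Hoxa10 at 18.8 and 62.8 FPKM, Hoxa11 at 2.81 and 27 FPKM, and Hoxc11 at 4.93 and 25.0 FPKM. Hoxd13 was at 3.37 and 24.7 FPKM, and Hoxc12 and Hoxd12, listed at 0 in NotoP, were at 5.42 and 5.59 FPKM in MP. Exceptions lay in the HoxD cluster, where Hoxd10 (82.2 and 68.5 FPKM) and Hoxd11 (62.0 and 74.5 FPKM) were nearly equal while Hoxd12 and Hoxd13 beside them were not. Hoxa11os, the antisense RNA of Hoxa11, was at 4.55 and 29.3 FPKM. The pair overlaps on opposite strands, and the reads were aligned with their strand.

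These Hox genes also differed between the stages. The summed FPKM of groups 10 to 13 was 1.68 in NotoP and 34.8 in MP at E8.5, and 200 and 447 at E9.5. Hoxa11, Hoxc11, Hoxc12 and Hoxd12 were under 1 FPKM in both E8.5 libraries, so the E8.5 pair could not show them, whereas Hoxc10, Hoxa10 and Hoxd13 were 3-fold higher in MP at both stages, Hoxd13 at only 2.09 FPKM in MP at E8.5. The MP-higher gene of groups 5 to 9 was Hoxb6, at 1.95 FPKM in NotoP and 10.7 FPKM in MP at E9.5, and it was 3-fold higher in MP at E8.5 too, at 4.28 and 25.5 FPKM.

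**Figure D3:**
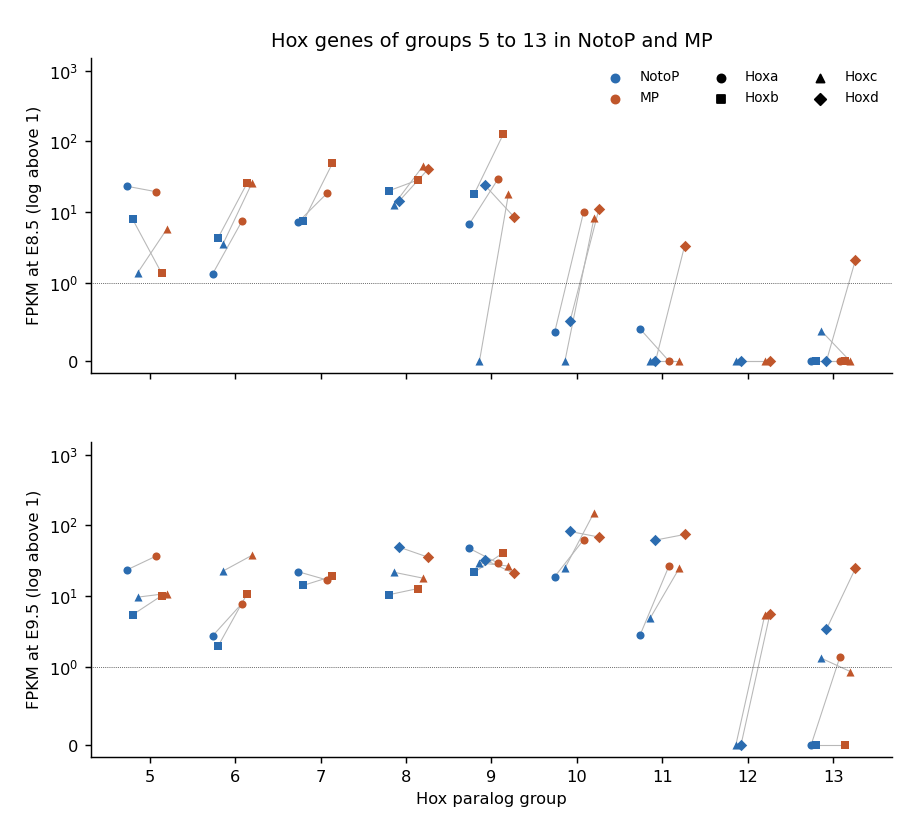
Each joined pair is 1 Hox gene of groups 5 to 13 in NotoP (blue) and MP (orange), at E8.5 above and E9.5 below, by paralog group, with FPKM linear up to 1 and log above it. Groups 10 to 13 sum to 1.68 FPKM in NotoP and 34.8 FPKM in MP at E8.5 and to 200 FPKM and 447 FPKM at E9.5.

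Replication-dependent histone genes made up 10 of the 164 MP-higher genes, a class picked out after the values were seen. Of 68 such genes (symbols Hist1 to Hist4), 60 were among the 8663 genes tested. At E9.5 55 of these had a lower value in NotoP than in MP, and the median log2 ratio was -0.92, beside 0.02 for all genes tested. The histone gene higher in NotoP by 3-fold was Hist3h2ba (16.7 and 3.96 FPKM). At E8.5 41 of the 60 had a negative ratio (median -0.38), where 47.5% of all tested genes did (median 0.04). In culture 56 did (median -0.74), where 51.6% of all tested genes did (median -0.02). Hist1h1b, a linker histone, was at 178 FPKM in NotoP and 674 FPKM in MP at E9.5, and Hist1h4m, the most abundant MP-higher gene, at 289 and 889 FPKM. Such mRNAs accumulate in S phase and their coding sequences are nearly identical, so values of single genes are uncertain. Of the genes, 5 lie together at chr13:23542923-23621124. Among 25 cell cycle genes tested, 0 were higher in MP, with a median of -0.26, and Ccnb1, the mitotic cyclin B1, was at 52.0 FPKM in NotoP and 142 FPKM in MP. The 2 that were higher in NotoP were inhibitors of cyclin-dependent kinases, Cdkn1c (149 and 14.4 FPKM) and Cdkn1a (8.43 and 1.92 FPKM).

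The genes with the largest MP ratios included several whose values need care. Ndufs5, a subunit of respiratory complex I, was at 0.00213 FPKM in NotoP and 42.2 FPKM in MP at E9.5, and it was also near 0 in the NotoP library at E8.5 (0.0116 FPKM) and in trunk notochord at E9.5 (0.0742 FPKM), but at 47.5 FPKM in trunk notochord at E8.5, 19.2 FPKM in NotoPdiff and 24.6 FPKM in MPdiff cells. Rpl30, a ribosomal protein gene with many pseudogene copies, was at 5.38 FPKM in NotoP and 172 FPKM in MP, while at E8.5 it was at 56.9 and 53.3 FPKM. It was listed at 0 in E9.5 trunk notochord and at 95.6 FPKM in NotoPdiff, and its reads can be split between copies. Snora34, a small nucleolar RNA, was listed at 0 and at 7.75 FPKM, and Dnajc4, a chaperone gene, at 0 and 8.17 FPKM. Tmem132c, a membrane protein gene (1.13 and 32.7 FPKM), and Lix1 (0 and 8.55 FPKM) had the same direction in culture, at 4.28 and 26.4 FPKM for Tmem132c and 0.486 and 6.64 FPKM for Lix1. Small RNA genes were 3.66% of the MP-higher genes, 2.01% of the NotoP-higher genes and 0.427% of all tested genes.

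The E8.5 pair showed a smaller share of the MP-higher than of the NotoP-higher genes. At E8.5 8856 genes were tested, 773 (8.73%) were 3-fold higher in MP and 1407 (15.9%) in NotoP. Of the 164 genes higher in MP at E9.5, 44 (26.8%) were 3-fold higher in MP at E8.5, 27 were 1.5- to 3-fold higher, 23 were less than 1.5-fold apart, 9 were 1.5- to 3-fold and 11 were 3-fold the other way, and another 50 were under 5 FPKM in both E8.5 libraries. Of the 447 genes higher in NotoP, 252 (56.4%) were 3-fold higher in NotoP at E8.5, 53 were 1.5- to 3-fold higher, 32 were less than 1.5-fold apart, 16 and 15 lay the other way, and another 79 were under 5 FPKM in both. The 44 and 252 were counted with no minimum at E8.5, and 36 (22.0%) and 215 (48.1%) of the members were 3-fold in the same direction with at least 5 FPKM in either E8.5 library, the rule behind the 773 and 1407 genes. Of the 252, 131 were listed at 0 in the E8.5 MP library. Of the 164 MP-higher genes, 38 were listed at 0 there, so the E8.5 pair could not show those 38 as higher in MP. The part of these zeros in the difference between the 2 shares was not tested. The sign of the E8.5 ratio matched for 57.9% of the MP-higher genes, where 47.5% of all tested genes had that sign, and for 79.9% of the NotoP-higher genes, where 51.7% had it.

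The E8.5 MP library, made from the fewest cells of the embryonic NotoP and MP libraries, stood apart. Of 6593 genes with at least 5 FPKM in each of the other 3 embryonic NotoP and MP libraries, 155 (2.35%) were listed at 0 in it, against 0 of 5958 in NotoP and 3 of 6008 in MP at E9.5. Markers of gut endoderm, lateral and intermediate mesoderm, germ cells (36.9 and 10.3 FPKM summed at E8.5 and E9.5) and blood and endothelium (2.29 and 0.902 FPKM) were also higher in it than in the E9.5 MP library, while those of neural tube (59 and 99.4 FPKM), floor plate (50.2 and 124 FPKM) and surface ectoderm (2.80 and 5.85 FPKM) were lower. The 17 gut endoderm genes in the table summed to 140 FPKM in MP at E8.5 and 4.41 FPKM at E9.5, led at E8.5 by Afp (62.2 FPKM) and Apob (23.3 FPKM), genes of visceral endoderm and gut, both listed at 0 in both E9.5 libraries. The 24 lateral and intermediate mesoderm genes summed to 149 FPKM in MP at E8.5 and 23.3 FPKM at E9.5, with Osr1 at 34.8 and 3.18 FPKM, Foxf1 at 26.8 and 0.566 FPKM and Hand2 at 22.1 FPKM and listed at 0. Their part in the difference between the stages was not tested.

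**Figure D4:**
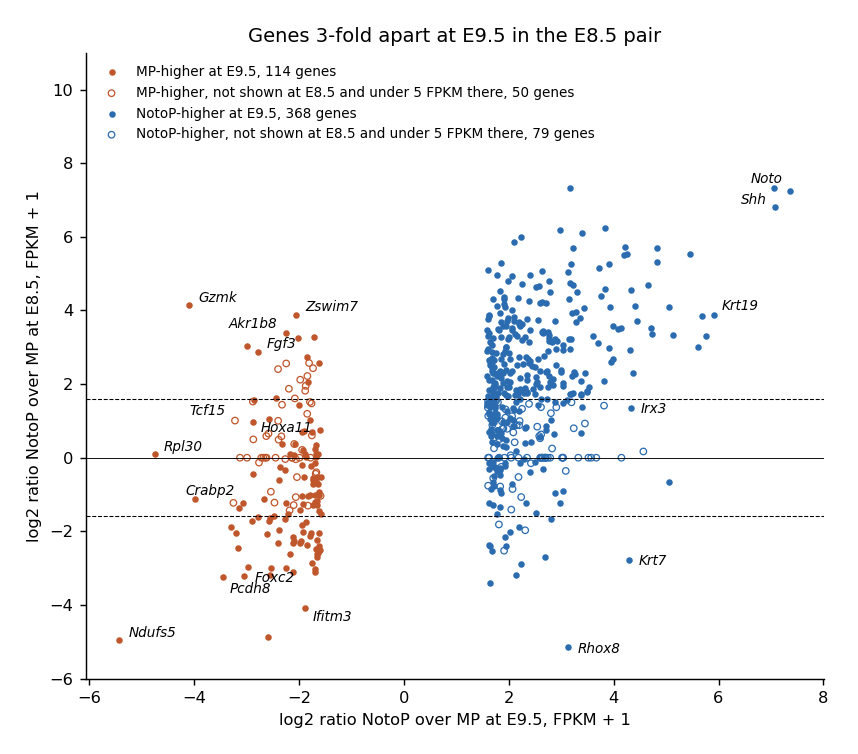
Each point is 1 gene 3-fold apart at E9.5, with the log2 ratio of NotoP over MP at E9.5 on the x axis and at E8.5 on the y axis, and dashed lines at 3-fold at E8.5. Open points are genes that were 3-fold apart at E9.5 only and under 5 FPKM in both E8.5 libraries, and most points at the right lie above 0 while those at the left spread across it.

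Of the 120 MP-higher genes that E8.5 did not show, 70 had at least 5 FPKM in either E8.5 library. They were chosen for a 3-fold ratio at E9.5 and none at E8.5, so a move between the stages was partly built in. No share of all tested genes stands beside the counts that follow. The level in MP was at least 3-fold higher at E9.5 than at E8.5 for 21 of the 70. The level in NotoP was at least 3-fold lower for 23, and 8 did both. Nkd2 belongs to the first kind: MP went from 4.03 FPKM at E8.5 to 51.1 FPKM at E9.5, while NotoP was at 9.37 and 7.80 FPKM. Crabp2 was higher at E9.5 in both, going from 3.14 to 10.7 FPKM in NotoP and from 8.65 to 97.0 FPKM in MP. Snai1 was at 17.2 FPKM in NotoP and 13.1 FPKM in MP at E8.5 and Dll1 at 51.7 and 56.8 FPKM, and by E9.5 MP had the higher level of both while NotoP was at or below its E8.5 level. Gja1, at 47.1 and 103 FPKM at E8.5, and Lef1, at 92.2 and 188 FPKM, had the same direction at E8.5 below 3-fold. Tcf15 and Ripply2, in contrast, had at most 1.88 FPKM in either library of the E8.5 pair.

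Fgf3 lay in the opposite direction at E8.5, at 6.32 FPKM in NotoP and listed at 0 in MP, against 2.70 and 24.5 FPKM at E9.5. Gzmk, a granzyme gene of lymphocytes, was at 16.7 FPKM in NotoP and listed at 0 in MP at E8.5, and listed at 0 in NotoP and at 16.2 FPKM in MP at E9.5. In all, 11 MP-higher genes (6.71%) did so, where 15.9% of all genes tested at E8.5 were 3-fold higher in NotoP. The E8.5 MP library was the one listed at 0 for Fgf3, Gzmk, Akr1b8, Zswim7 and Mir1983.

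The NotoP-higher genes that E8.5 did not show numbered 195, and 116 of them had at least 5 FPKM in either E8.5 library. These 116 were chosen for their E9.5 and E8.5 ratios, so a lower MP or higher NotoP level at E9.5 was partly built in. No share of all tested genes stands beside the counts that follow. For 60 of the 116 the MP level was at least 3-fold lower at E9.5 than at E8.5. For 12 the NotoP level was at least 3-fold higher, and 8 did both. Of the 8 epithelial genes higher in NotoP, 6 were also 3-fold higher at E8.5, and Krt7 and Epcam were not. Krt7, a simple-epithelium keratin, was at 1.78 FPKM in NotoP and 18.0 FPKM in MP at E8.5 and at 18.7 FPKM and listed at 0 at E9.5. Epcam, the epithelial adhesion molecule, was at 18.3 and 22.7 FPKM at E8.5 and 8.12 and 0.444 FPKM at E9.5. Epcam is also on the gut endoderm list, whose sum in MP was 140 FPKM at E8.5 and 4.41 FPKM at E9.5, and the part of that difference in these values was not tested. Bmp4, a ligand, was at 4.73 and 5.21 FPKM at E8.5 and at 9.69 and 2.29 FPKM at E9.5.

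Irx3, a homeobox gene of the same set, was at 18.5 FPKM in NotoP and 6.63 FPKM in MP at E8.5 and at 19.2 FPKM and listed at 0 at E9.5. F5, coagulation factor V (17.2 and 0.741 FPKM at E9.5), and Trf, transferrin (14.4 and 0.784 FPKM), were at 7.89 and 2.45 FPKM and at 5.26 and 1.11 FPKM at E8.5. Peg10, an imprinted gene, was at 185 and 24.1 FPKM at E9.5 and 172 and 59.2 FPKM at E8.5. In these 4 genes NotoP was at or above its E8.5 level at E9.5 while MP was below its own. Rpl34-ps1 (122 and 0.00444 FPKM in NotoP and MP at E9.5, 0.0201 and 339 FPKM at E8.5) and Rnaset2a (32.2 FPKM and listed at 0 at E9.5, 40.3 and 64.7 FPKM at E8.5) belong to families with closely similar copies, and whether reads were shared between copies was not tested, so their values are uncertain.

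Other epithelial genes were higher in NotoP at both stages. Of 9 epithelial genes tested, 8 were higher in NotoP at E9.5 and 0 in MP, with a median of 3.00. Krt19 was at 160 and 1.66 FPKM, Krt8 at 109 and 1.27 FPKM, Krt18 at 86.5 and 1.63 FPKM and the tight junction gene Cldn6 at 23.9 and 2.13 FPKM. Prom1 (36.2 and 21.8 FPKM) was the epithelial gene below 3-fold. Cdh1, E-cadherin, was under 5 FPKM in both, at 3.36 and 0.933 FPKM, and Cdh2, N-cadherin, was at 216 and 139 FPKM. Of 13 mesenchymal genes tested, 2 were higher in MP (Snai1 and Pdgfra) and 1 in NotoP, Tgfb2 (18.3 and 4.65 FPKM), with a median of 0.07. Vim, vimentin, was at 186 and 212 FPKM.

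Among the other largest NotoP ratios were Samd3 (133 FPKM in NotoP and listed at 0 in MP), Pcp4, a calmodulin regulator (91.4 and 0.713 FPKM), Frem2, a basement membrane protein (94.5 and 0.852 FPKM), Lmx1a, a homeobox gene of midline tissue (42.8 FPKM and listed at 0), and the forkhead gene Foxa1 (44.3 and 0.287 FPKM). All 5 were 3-fold higher in NotoP at E8.5 as well. Basement membrane genes gave 3 of 14 tested higher in NotoP, with a median of 0.97. Axon guidance genes gave 4 of 19, among them Slit2 and Sema3e (23.5 and 0.866 FPKM), and 1 higher in MP, the receptor Nrp2 (1.72 and 14.1 FPKM), with a median of 0.23. Bmp pathway genes gave 2 of 8 higher in NotoP, the ligands Bmp4 and Bmp7 (17.2 and 0.748 FPKM), and 1 in MP, the target Msx2 (1.79 and 7.40 FPKM).

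**Figure D5:**
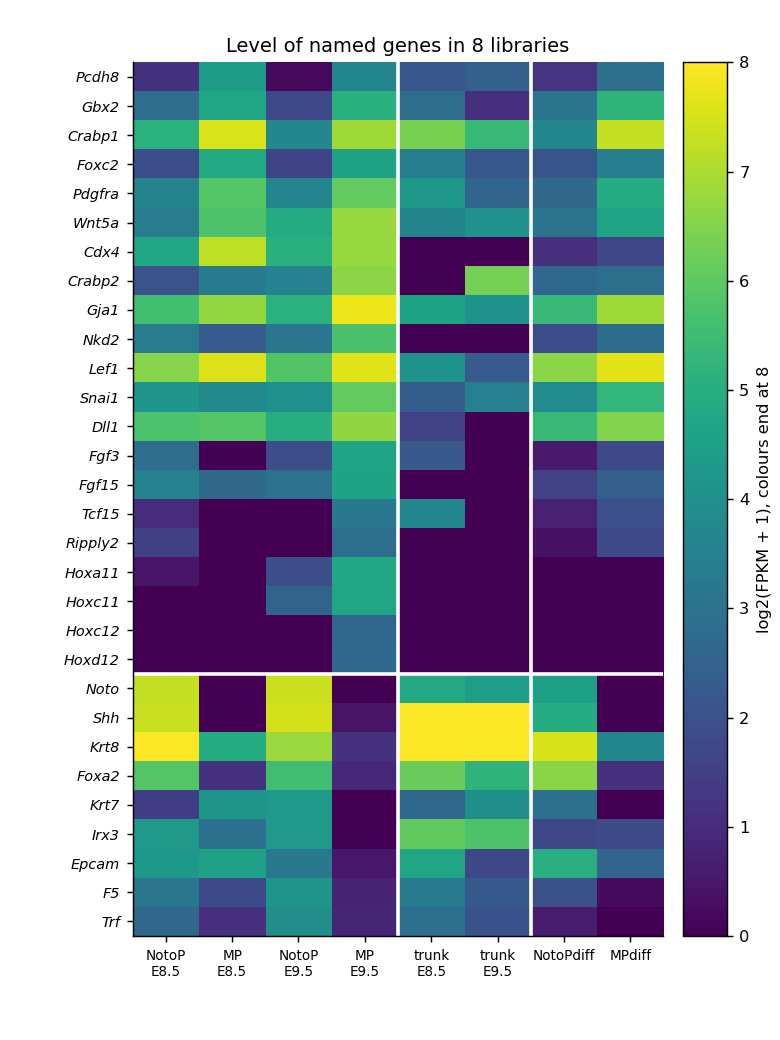
Colour gives log2(FPKM + 1), ending at 8, for 21 genes higher in MP (upper block) and 9 higher in NotoP (lower block) at E9.5 in 8 libraries, from left the E8.5 and E9.5 pairs, trunk notochord at E8.5 and E9.5 and the cultured pair. Hoxa11 and Hoxc11 exceed 1 FPKM in the E9.5 pair alone, Hoxc12 and Hoxd12 in E9.5 MP alone, and Krt7 and Epcam are lighter in MP at E8.5 than in MP at E9.5.

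Markers of other cell types that the gates could have let through ranged widely at E9.5. Of 19 blood and endothelial genes none reached 5 FPKM, and they summed to 0.162 FPKM in NotoP and 0.902 FPKM in MP, with 16 at 0 in both. Gut endoderm genes summed to 25.9 FPKM in NotoP and 4.41 FPKM in MP, with Trf and Epcam as the genes tested. The lateral and intermediate mesoderm genes summed to 14.7 and 23.3 FPKM, with Tbx3 and Msx2 higher in MP and Bmp4 in NotoP. Of 20 neural tube genes, which summed to 73.4 FPKM in NotoP and 99.4 FPKM in MP, 5 were tested: Pax3 and Ncam1 (9.94 and 34.1 FPKM) were higher in MP, Irx3 in NotoP, and Sox2 was at 10.5 and 3.35 FPKM, while Sox1 and Pax6, which define neural tissue, were at 0.479 and 0.227 FPKM and at 0 and 0.733 FPKM. The most abundant neural gene was Fabp7 (27 and 50.4 FPKM). Of 10 germ cell genes, Ifitm3 (0.994 and 6.35 FPKM) was the one tested, with Dppa3 and Nanog listed at 0 in both. Of 16 dissociation stress genes 5 were tested and 2, Jun (15.0 and 3.44 FPKM) and Junb (10.2 and 2.49 FPKM), were higher in NotoP. The part of these markers in the result was not tested. Of the node and cilia genes 2 of 5 tested, Gdf1 and Dand5, were higher in NotoP, of the cartilage genes 1 of 4 (Hapln1), of the floor plate genes 1 of 4 (Cmtm8, 20.0 and 1.29 FPKM) and of the surface ectoderm genes 2 of 2 (Wnt6 and Perp). The floor plate genes summed to 206 FPKM in NotoP and 124 FPKM in MP, mostly through Sulf1 (143 and 93.1 FPKM). The glycolysis list (19 tested, median 0.22) and the housekeeping list (15 tested, median -0.29) held no gene past 3-fold in either direction.

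In the cultured pair, 111 of the 164 MP-higher genes were lower in NotoPdiff than in MPdiff (67.7%, 95% Wilson interval 60.2 to 74.4), where 51.6% of all tested genes were, and 386 of the 447 NotoP-higher genes were higher in NotoPdiff (86.4%, 82.9 to 89.2), where 48.2% were. The intervals cover counting error only, genes are not independent, and the cultured cells were sequenced on another instrument. The shares count a difference of any size. By the 3-fold rule, 18 MP-higher genes had the same direction in culture and 0 the opposite one. For the NotoP-higher genes these counts were 125 and 1, and no share of all tested genes stands beside them. In culture 58 MP-higher and 159 NotoP-higher genes were under 5 FPKM. For the genes that E8.5 did not show, the shares with the same direction at any size were 65.8% and 78.5%. Crabp1, at 11.9 FPKM in NotoPdiff and 154 FPKM in MPdiff, Gbx2, at 7.51 and 36.8 FPKM, and Snai1, at 13.7 and 38.2 FPKM, kept the embryonic direction. The posterior Hox genes of the MP side were under 1 FPKM in both cultured libraries. Hoxa11 was listed at 0 in NotoPdiff and at 0.0380 FPKM in MPdiff, and Hoxc12 and Hoxd12 at 0 in both. Nkx1-2 went the other way, at 19.2 and 7.13 FPKM, and so did Bmp4, at 5.01 and 15.0 FPKM.

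Binding of T and Foxa2, mapped by ChIP-seq in cultures enriched for NotoPdiff cells, was read within 5000 bp of a RefSeq start. A T summit lay there for 18 of 164 MP-higher genes (11%), 58 of 444 matched NotoP-higher genes (13.1%) and 8.51% of all tested genes. For Foxa2 the shares were 9.76%, 15.3% and 11.7%. A summit of either factor was present for 17.7% (12.6 to 24.2), 23.4% (19.7 to 27.6) and 18.3%, and within 1000 bp for 3.05% (1.31 to 6.94), 8.78% (6.49 to 11.8) and 7.36%. The MP-higher genes were thus near the share of all tested genes in the wider window and below it in the narrower one, where 5 genes had a summit. Nearest to a start among the MP-higher genes were T summits 23 bp from that of the cell adhesion gene Ncam1 (peak chr9:49798930-49799196, mm10) and 46 bp from that of Dcun1d1 (chr3:35932037-35932529), and Pax3 had one 985 bp upstream (chr1:78198002-78198268). At Foxa2 itself a T and a Foxa2 summit lay 150 and 133 bp after the start. A T peak at chr9:72985432-72985811 lay beside the divergent starts of Ccpg1, higher in NotoP, and Ccpg1os (0.910 and 7.75 FPKM), higher in MP.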

How the data were processed

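RNA-seq of sorted cells was taken from the FPKM table that the authors deposited, 1 column for each of 9 libraries. Per the submitters' processing notes and the study's methods, the authors made Ovation SoLo libraries, aligned trimmed reads to mm10 by strand with TopHat2 2.1.1 and Bowtie 1.2.2, removed duplicates by molecular identifiers with NuDup and estimated FPKM with Cufflinks 2.2.1. FPKM keeps no counts, so the reads behind a gene's value cannot be read from the table and no interval was given for it. The study lists mapped reads per library, with the fewest of the 4 embryonic NotoP and MP libraries in MP at E8.5. Summed FPKM was 397775 in NotoP and 406201 in MP at E9.5, and 8076 and 7667 genes had at least 5 FPKM.

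The ratio was log2((NotoP + 1)/(MP + 1)), which understates the change of low genes. No test was run because each group held 1 library. E8.5 showed a gene where its ratio was 3-fold in the same direction. T and Foxa2 narrowPeak lists, 6875 and 22684 peaks, were called by the authors for each library with MACS3 3.0.0b1, with no control library named, and the deposited score, fold enrichment, −log10 p and −log10 q columns were left as the authors made them, with q below 0.1. A gene counted as having a peak where a summit lay within 5000 bp of a RefSeq start (GRCm38.p6, the assembly mm10 names), and 8632 of 8663 tested symbols matched. Motifs, 17 in all, were searched in RefSeq promoters, and shares carry 95% Wilson intervals.

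Members and the 27 gene lists were chosen with earlier results of these data known. Genes were named by rule: the 12 with the largest ratio in each direction, the same among those present at E8.5 but not shown there, 5 in each direction that were opposite at E8.5, up to 4 members of each list and those that define a cell type, 2 on each side of each threshold, and the 3 reporter genes. Further list members (such as Dll1, Cdx4, Foxc1, Hoxc10, Nog and Fgf8), histone genes and genes nearest to a peak were named after their values were seen. Scripts were tested on simulated data under Python 3.11.15 (pandas 2.3.3, numpy 2.4.6, matplotlib 3.10.9, scipy 1.17.1). The ATAC-seq and histone ChIP-seq samples were not used here, and 1 withheld gene is not reported here.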

Additional observations from a re-analysis of the deposited data

Results flagged for a closer look

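The E8.5 and E9.5 pairs put 26 genes 3-fold apart in opposite directions. At E9.5 11 were higher in MP (6.71% of 164) and 15 higher in NotoP (3.36% of 447). Of all genes tested at E8.5, 15.9% were 3-fold higher in NotoP and 8.73% in MP, so neither share exceeded that of all genes. With 1 library per group the difference between the stages was not tested. Among the genes higher in MP at E9.5, Gzmk had a log2 ratio of -4.10 at E9.5 and 4.14 at E8.5, and the ligand gene Fgf3 of -2.79 and 2.87. The ratios were -2.99 and 3.03 for the microRNA gene Mir1983, -2.24 and 3.38 for the aldo-keto reductase gene Akr1b8, and -2.06 and 3.89 for Zswim7. All 5 were listed at 0 in the E8.5 MP library, the library with the most such zeros. Among the genes higher in NotoP at E9.5, the ratios were 4.30 and -2.77 for the keratin gene Krt7, 3.13 and -5.15 for the homeobox gene Rhox8, and 2.23 and -2.89 for Ceacam20. They were 2.68 and -2.69 for H60b, and 6.94 and -8.38 for Rpl34-ps1, named as a ribosomal pseudogene, where the sharing of reads with its parent gene was not tested.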

How the results depend on the processing

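No paired analysis was possible because each group held 1 library, and for the same reason no library could be left out of a comparison. Counts moved with the settings. None of the 131 genes named by rule reversed under another pseudocount or scaling, but this outcome was fixed in advance. A pseudocount added to both values cannot change the sign of a ratio. Reversal was counted only for genes past 3-fold, which the scaling factors given below were too small to turn. Main values were 164 genes higher in MP, 447 in NotoP, 120 and 195 of them not shown at E8.5, 26 in opposite directions, and 67.7% and 86.4% with the same direction in culture. A pseudocount of 0.1 gave 42 in opposite directions. A pseudocount of 5 gave 43, 142, 35, 59 and 4 for the 5 counts, 83.7% and 93% in culture, and 49 called members of the gene lists in place of 85. No minimum, and a minimum of 1 FPKM, gave 266 higher in MP, 209 and 316 not shown and 58 opposite. A minimum of 10 FPKM gave 90, 283, 63, 103 and 14, and 74.4% for MP in culture, and turned the median of the neural tube list from -0.87 to 0.26, with fewer genes tested. Of 284 list medians computed under the alternatives, 31 others moved. The somite median went from -1.33 to -0.51 at that minimum, and with no minimum it and those of the germ cell, gut endoderm, lateral mesoderm, neural tube and surface ectoderm lists were 0.00. Hox 10 to 13 went from -2.55 to -1.51 with a pseudocount of 5, and the epithelial median from 3.00 to 1.32 with no minimum. Of 655 ratios of named genes 64 moved, 46 of them with a pseudocount of 5. A 2-fold threshold gave 480, 913, 318, 372 and 108, and 80.4% for NotoP in culture, and a 4-fold one gave 83, 264, 66, 124 and 13. Counting E8.5 as showing a gene from 1.5-fold left 110 NotoP-higher genes not shown. Requiring 5 FPKM in either E8.5 library, an alternative chosen after seeing the data, left 70 and 116. A window of 1000 bp gave a T or Foxa2 summit for 3.05% of MP-higher and 8.78% of NotoP-higher genes, where 7.36% of all tested genes had one. Rescaling by median of ratios or by upper quartile, factors of 0.02 and 0.04 on the log2 scale, gave 173 and 439 or 177 and 420 genes, and upper-quartile scaling took the dissociation stress median from 1.06 to 0.57. Beyond the settings' own construction, the cause of these shifts was not tested.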
